A study of Mus musculus with 15 samples.

Results

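The ligands and receptors of 5 families of secreted growth factors, namely the fibroblast growth factors (FGF), the epidermal growth factor family (EGF, with the neuregulin Nrg1), the platelet-derived growth factors (PDGF), the insulin-like growth factors (IGF) and hepatocyte growth factor (HGF), were examined in the RNA of mouse skin. Members were taken by gene symbol, as every numbered Fgf gene, the receptors Fgfr1 to Fgfr4, the 4 PDGF chains with both PDGF receptors, 8 EGF family ligands with the 4 receptors of that family, Igf1, Igf2, Igf1r, Hgf and Met. The rule found 47 of the 18929 genes in the table. Of these, 41 passed the filter on low counts and were tested among 15369 genes in all, as 29 ligands and FGF homologous factors and 12 receptors. The other 6 were Fgf3, Fgf6, Fgf17, Fgf20, Fgf21 and Fgf23, which had between 0 and 16 counts in a sample. Fgf8 and Fgf15 were not analysed here.

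The 15 samples were dorsal skin of wild-type male balb/c mice that were 4 to 6 weeks old at surgery, in 5 groups of 3. Full-thickness excisional wounds of 10 mm or 15 mm were filled either with acellular Matrigel beads, Matrigel being a gel of basement membrane proteins, or with printed Matrigel beads that carried human umbilical cord mesenchymal stem cells (MSCs) at high density (HDB), with acellular beads in the space between them. Both kinds of healed wound therefore received Matrigel, and unwounded normal skin served as the untreated control. According to the methods the sequenced skin was taken after 4 weeks of implantation, whereas the wounds were followed until day 21. Labels describe HDB samples as skin cells together with the transplanted cells, while the table lists mouse genes, and reads of the human cells were not separated here. Whether the 3 samples of a group came from separate mice is not given in the sources used here, so p-values measure the spread between these samples. The study asked whether the MSC-laden beads change how large wounds heal, and the comparisons below address that question for the growth factor genes.

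Levels are given in CPM, the counts of a gene scaled to a common library size after TMM normalization, and changes as log2 fold changes with their standard error (SE) from edgeR's quasi-likelihood test, with p-values adjusted over all 15369 genes. A member was called when its adjusted p was under 0.05. Total counts ranged from 15840551 to 18404188 per sample. Within a group, samples correlated across genes with r from 0.983 to 0.989 in normal skin and from 0.853 to 0.921 in acellular 15 mm skin, the group with the widest spread. There, replicate 1 stood apart, with hair shaft and inner root sheath keratins summing to 19115 CPM, against 14.7 to 1475 CPM in the other 11 healed samples. In whole tissue, fewer cells of a type and less RNA per cell cannot be told apart.

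All 5 families act through receptor tyrosine kinases, which are activated by ligand binding. The receptors signal through adaptors such as Frs2, Grb2 and the Irs proteins to the Ras and MAP kinase pathway and to PI3 kinase. In skin the ligands and receptors are often made by different cells. Fibroblasts make Fgf7 and Fgf10 for the receptor Fgfr2 of keratinocytes, keratinocytes make much of the Pdgfa that acts on Pdgfra of fibroblasts, and keratinocytes both make and answer to EGF family ligands. In the hair follicle, Egf, Fgf5, Fgf18 and Igf1 are known regulators of the growth and resting phases. The FGF homologous factors Fgf11 to Fgf14 are intracellular proteins that bind sodium channels, and they were counted with the ligands only because they share the gene name.

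In normal skin Fgfr1 and Fgfr2 had the highest means of the receptors, whereas the order of the ligands depended on the transcript length used. On the scale of CPM per kilobase of the longest annotated protein-coding transcript, Fgfr1 (28.7 ± 4.73, mean ± SD, n = 3) and Fgfr2 (24.4 ± 1.61) were the highest of 12. Fgfr3 (17.9 ± 2.06), Pdgfrb (17.0 ± 3.59), Erbb2 (13.8 ± 0.563) and Erbb3 (13.7 ± 1.73) followed. The ranges of Fgfr1 and Fgfr2 overlapped, as did those of each neighbouring pair from Fgfr3 to Erbb3. Pdgfra, Met, Egfr and Igf1r lay between 5.43 and 8.35 on average, Fgfr4 was near the end at 2.32 ± 0.181, and Erbb4, a neuregulin receptor, was lowest at 0.0780 ± 0.0390. Among the ligands on the same scale, Pdgfa (21.7 ± 3.07) was highest and did not overlap with Pdgfb (14.6 ± 0.933), the next. Igf1 (12.1 ± 4.41) and the homologous factor Fgf13 (11.9 ± 2.39) came after it, with ranges that overlapped.

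With the median transcript length in its place, an alternative added after seeing the data, Fgfr2 (45.9) came before Fgfr1 (38.1). Fgf2 (106), Pdgfb (66.1) and Igf1 (62.6) then led the ligands, ahead of Pdgfa.

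In healed skin Fgfr2 had the highest mean level per kilobase of the receptors in every wound group with either length. On the scale of the longest transcript it stood at 49.3 ± 3.64 in acellular 10 mm, 44.6 ± 3.04 in HDB 10 mm, 41.0 ± 2.48 in acellular 15 mm and 36.2 ± 8.09 in HDB 15 mm skin. It did not overlap with the next receptor in either 10 mm group, while at 15 mm its range overlapped with that of the next receptor. Pdgfa had the highest mean of the ligands in all 4 wound groups on that scale. With the median length the ligands were led by Pdgfb in both 10 mm groups, by Fgf2 in acellular 15 mm skin and by Igf1 in HDB 15 mm skin.

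**Figure D1:**
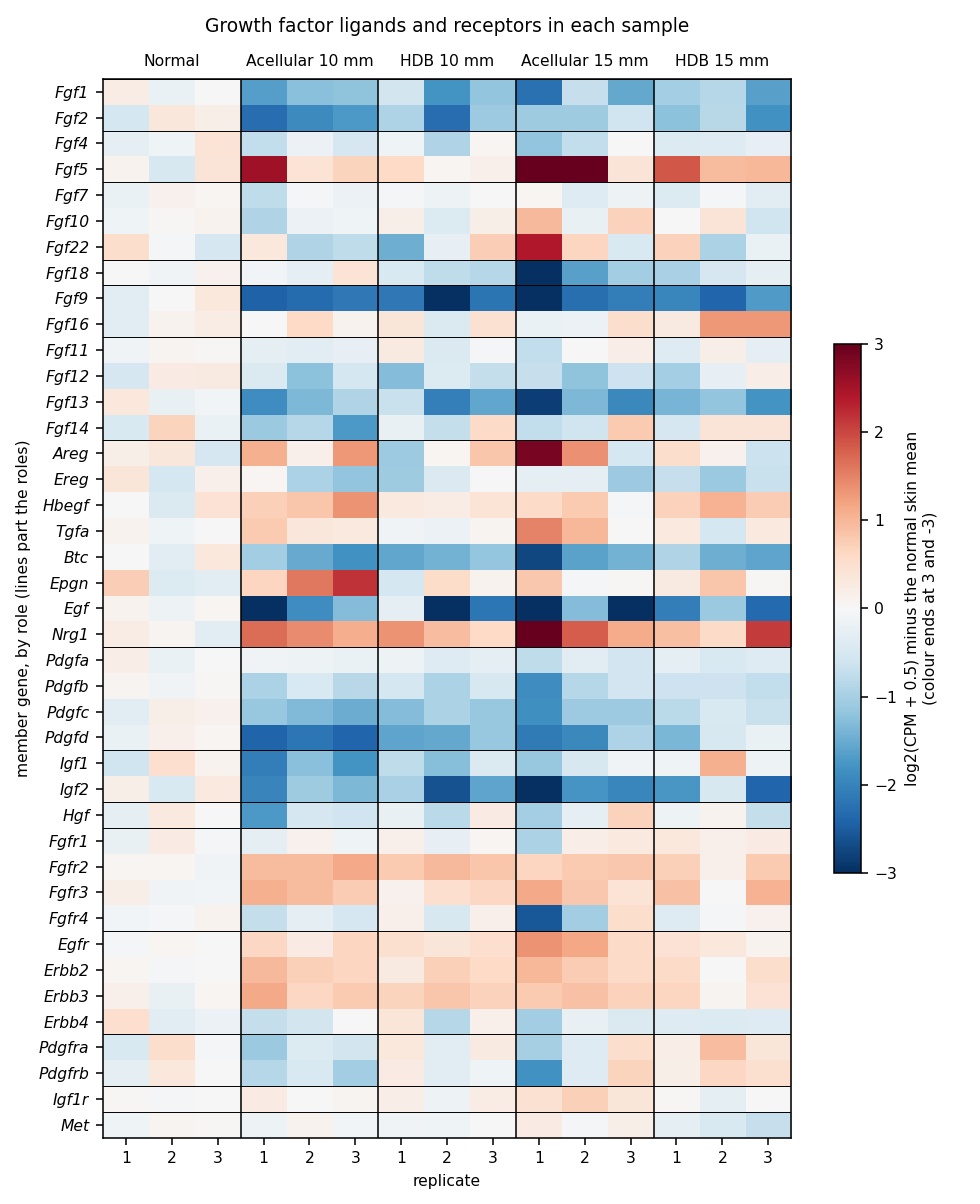
Level of the 41 tested members in each of the 15 samples, as log2(CPM + 0.5) minus the mean of the 3 normal samples, with samples in columns by group and genes in rows by role. Blue rows mark Fgf1, Fgf2, Fgf9, Fgf13, Btc, Egf, Pdgfb, Pdgfc and Igf2, whose 12 healed samples were all below normal skin. Acellular 15 mm replicate 1 has the darkest red cells for Nrg1, Areg and Fgf22. The colour ends at 3 and -3, and replicates 1 and 2 of acellular 15 mm skin share the end colour for Fgf5.

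Healed skin held less RNA of many ligands and more of several receptors than normal skin. With the mean of the 4 wound groups set against normal skin, 11 members were called lower, all of them ligands or homologous factors (Fgf1, Fgf2, Fgf9, Fgf13, Btc, Egf, Pdgfa, Pdgfb, Pdgfc, Pdgfd and Igf2), beside 16.7% of all genes tested. Another 7 were called higher, the receptors Fgfr2, Fgfr3, Egfr, Erbb2 and Erbb3 and the ligands Hbegf and Nrg1, beside 14.2% of all genes. None of the 12 receptors was called lower. The median log2 fold change was -0.68 over the 29 ligands and homologous factors, 0.09 over the 12 receptors and 0.04 over all genes. In 9 members all 12 healed samples lay below all 3 normal samples (Fgf1, Fgf2, Fgf9, Fgf13, Btc, Egf, Pdgfb, Pdgfc and Igf2), beside 11.1% of all genes, and in Fgfr2, Nrg1 and Egfr all lay above, beside 9.86%. For such a split the exact two-sided permutation test can give a p of 0.0022 at the lowest. Leaving out 1 sample at a time gave 12 to 20 called members beside 11.9% to 40.1% of all genes, against 30.9% with all samples. The lowest of both came without normal replicate 3, and without acellular 15 mm replicate 1 the same 18 and Fgf18 were called. Of the 18, 11 were called under every alternative in which they were tested and Igf2 under 20 of 21. Fgfr3, Pdgfa and Pdgfb were called under 19 of 21 alternatives, Egf under 18 of 21, Nrg1 under 17 of 20 and Hbegf under 5 of 21.

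**Figure D2:**
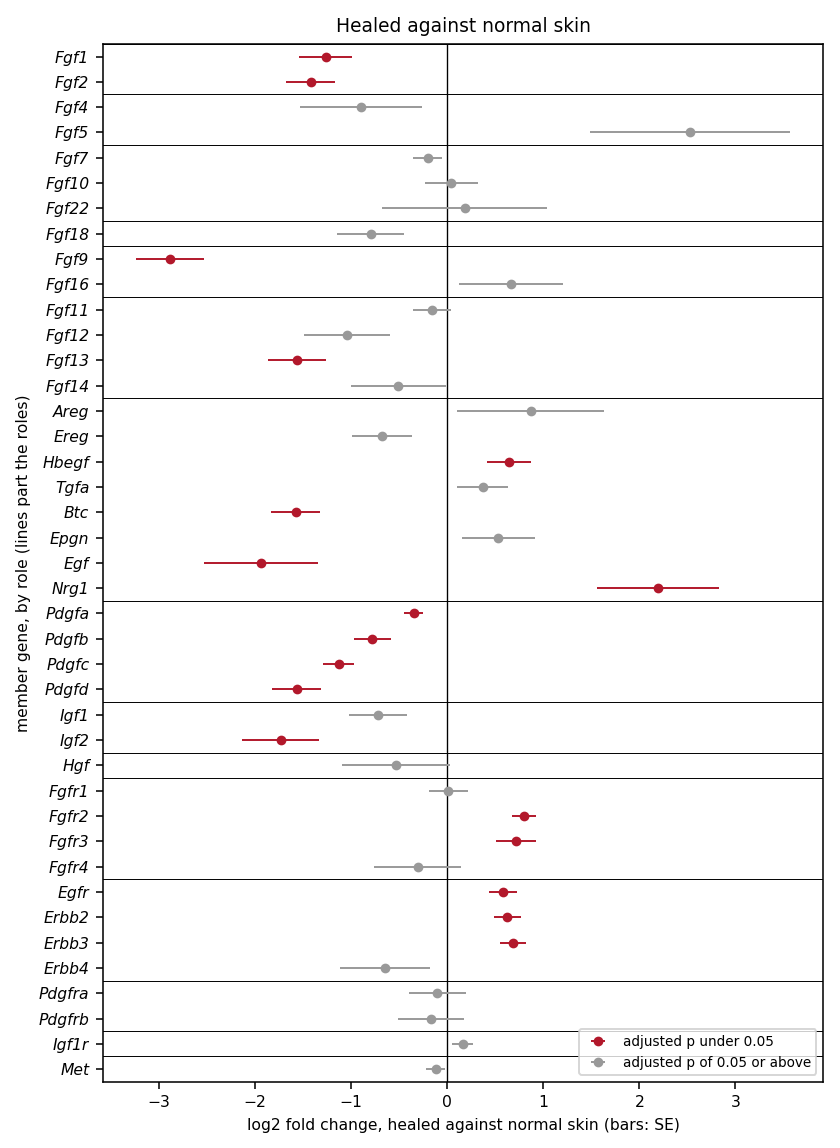
Log2 fold change of each tested member between healed skin (the mean of the 4 wound groups) and normal skin, with bars of 1 SE and genes grouped by role. Red points passed an adjusted p of 0.05, with ligands and the homologous factor Fgf13 on the left, from Fgf9 at -2.88 to Pdgfa at -0.35. On the right are the receptors Fgfr2, Fgfr3, Egfr, Erbb2 and Erbb3 between 0.58 and 0.80, and also the ligands Hbegf and Nrg1.

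Of the FGF ligands, Fgf9 (chr14:58070671-58112854, GRCm38.p6), a factor that signals between epithelium and mesenchyme, had the smallest p of all members. Its level was 4.57, 5.89 and 7.45 CPM in normal skin, 0.685, 0.786 and 0.935 in acellular 10 mm skin, 0.947, 0.215 and 0.889 in HDB 10 mm skin, 0.227, 0.817 and 1.01 in acellular 15 mm skin and 1.14, 0.727 and 1.47 in HDB 15 mm skin. The 12 healed samples did not reach the lowest normal sample, and the log2 fold change was -2.88 ± 0.36 (SE, adjusted p = 0.000908). Fgf2, which lacks a classical secretion signal and acts on fibroblasts and endothelium, stood at 38.1, 69.4 and 62.0 CPM in normal skin, 10.9, 14.2 and 16.3 in acellular 10 mm skin, 28.5, 10.9 and 25.3 in HDB 10 mm skin, 25.9, 25.8 and 35.8 in acellular 15 mm skin and 23.0, 30.6 and 15.2 in HDB 15 mm skin. It was lower in every healed sample, with a log2 fold change of -1.42 ± 0.26 (SE, adjusted p = 0.00337), and the acellular 10 mm samples were all below the acellular 15 mm samples. Its relative Fgf1, which binds all FGF receptors, measured 49.5, 36.6 and 42.2 CPM in normal skin, 13.2, 17.4 and 18.1 in acellular 10 mm skin, 29.1, 11.9 and 18.3 in HDB 10 mm skin, 8.67, 26.2 and 14.4 in acellular 15 mm skin and 20.6, 23.3 and 13.5 in HDB 15 mm skin. Normal and healed samples again did not overlap (log2 fold change -1.26 ± 0.28 SE, adjusted p = 0.00736).

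Most of the other FGF genes were not called. Fgf7 and Fgf10, the mesenchymal ligands of Fgfr2, had log2 fold changes of -0.20 ± 0.15 and 0.04 ± 0.28 (SE), and neither was called. Fgf7 ranged from 12.7 to 22.8 CPM in healed and from 19.1 to 24.2 CPM in normal skin. Fgf18, a factor of the resting hair follicle, ranged from 0.567 to 11.4 CPM in healed and from 7.83 to 9.26 CPM in normal skin and was not called (log2 fold change -0.80 ± 0.35 SE, adjusted p = 0.0968). Fgf5, the signal that ends hair growth, was not called either (log2 fold change 2.53 ± 1.04 SE, adjusted p = 0.0819), and its range of 0.323 to 20.2 CPM in healed skin rested at the top on acellular 15 mm replicate 1. Fgf4, Fgf16 and Fgf22 were at 2.11 CPM or less except for 7.77 CPM of Fgf22 in that same sample. Of the homologous factors, Fgf13 was lower in all healed samples, at 36.4, 25.0 and 27.6 CPM in normal skin, 7.65, 11.3 and 15.5 in acellular 10 mm skin, 18.2, 6.67 and 9.66 in HDB 10 mm skin, 3.68, 11.3 and 7.27 in acellular 15 mm skin and 10.9, 12.7 and 8.13 in HDB 15 mm skin (log2 fold change -1.56 ± 0.30 SE, adjusted p = 0.00451). The other 3 homologous factors, Fgf11, Fgf12 and Fgf14, had log2 fold changes between -1.04 and -0.16 and were not called.

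The EGF family ligands were called in both directions. Btc (betacellulin, chr5:91357261-91402994), a ligand of Egfr and Erbb4, measured 17.0, 13.5 and 21.3 CPM in normal skin, 8.05, 5.67 and 4.50 in acellular 10 mm skin, 5.45, 6.03 and 7.33 in HDB 10 mm skin, 2.15, 5.25 and 6.0 in acellular 15 mm skin and 8.80, 5.88 and 5.31 in HDB 15 mm skin. It was lower in all 12 healed samples (log2 fold change -1.57 ± 0.25 SE, adjusted p = 0.00209). Egf was likewise below normal in every healed sample, from 1.54 to 26.3 CPM with a median of 7.02, against 28.9 to 34.4 CPM in normal skin (log2 fold change -1.94 ± 0.59 SE, adjusted p = 0.0284). By contrast Nrg1, a ligand of Erbb3 and Erbb4, ranged from 1.03 to 11.5 CPM in healed and from 0.335 to 0.703 CPM in normal skin (log2 fold change 2.19 ± 0.64 SE, adjusted p = 0.0226). Hbegf, a membrane-bound Egfr ligand released by wounded keratinocytes, had an adjusted p just under the threshold, with overlap between the groups (log2 fold change 0.65 ± 0.23 SE, adjusted p = 0.0493). That call was lost under 16 of 21 alternatives, over which the adjusted p ranged from 0.0167 to 0.217. Areg, Ereg, Tgfa and Epgn were not called, with log2 fold changes of 0.87, -0.68, 0.37 and 0.53.

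All 4 PDGF ligands were called lower in healed skin. Pdgfc (chr3:81036416-81214040), which acts on Pdgfra after proteolytic release, stood at 27.5, 38.5 and 37.4 CPM in normal skin, 15.2, 13.3 and 11.9 in acellular 10 mm skin, 13.6, 17.5 and 15.2 in HDB 10 mm skin, 9.18, 15.7 and 15.7 in acellular 15 mm skin and 19.4, 24.9 and 21.4 in HDB 15 mm skin. No healed sample reached the normal range (log2 fold change -1.13 ± 0.16 SE, adjusted p = 0.00126). Pdgfd (chr9:6168363-6534284), the ligand of Pdgfrb, measured 14.4, 18.5 and 17.3 CPM in normal skin, 2.74, 3.31 and 2.81 in acellular 10 mm skin, 5.27, 5.43 and 7.33 in HDB 10 mm skin, 3.46, 3.97 and 8.602 in acellular 15 mm skin and 6.11, 11.8 and 14.5 in HDB 15 mm skin. HDB 15 mm replicate 3 overlapped with normal skin by a small margin, and the log2 fold change was -1.57 ± 0.26 (SE, adjusted p = 0.0022). Pdgfb, made by endothelium to recruit pericytes, ranged from 11.4 to 31.1 CPM in healed and from 40.0 to 45.3 CPM in normal skin (log2 fold change -0.78 ± 0.20 SE, adjusted p = 0.0129). The change of Pdgfa was the smallest of the 4 (log2 fold change -0.35 ± 0.10 SE, adjusted p = 0.0212), and its samples overlapped.

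Igf2, a growth factor that is high in fetal tissue, was at 24.5, 15.9 and 26.6 CPM in normal skin, 5.19, 10.2 and 8.30 in acellular 10 mm skin, 10.9, 3.17 and 6.94 in HDB 10 mm skin, 1.93, 6.07 and 5.26 in acellular 15 mm skin and 6.11, 15.4 and 3.78 in HDB 15 mm skin. All healed samples lay below normal skin (log2 fold change -1.73 ± 0.40 SE, adjusted p = 0.00902), although the call was lost without normal replicate 3 (adjusted p = 0.0527, with a range of 0.000424 to 0.0527 over all alternatives). Igf1, a product of dermal fibroblasts that acts on keratinocytes and hair follicles, was not called over the wound groups together (log2 fold change -0.72 ± 0.30 SE, adjusted p = 0.0848). It ranged from 19.1 to 171 CPM in healed and from 53.5 to 116 CPM in normal skin. Hgf, the ligand of Met, was at 2.44 CPM or less in every sample and was not called (log2 fold change -0.53 ± 0.57 SE, adjusted p = 0.494).

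Fgfr2 (chr7:130162451-130266808), the receptor of Fgf7 and Fgf10, measured 109.5, 109 and 97.3 CPM in normal skin, 204, 203 and 231 in acellular 10 mm skin, 182, 207 and 188 in HDB 10 mm skin, 165, 183 and 183 in acellular 15 mm skin and 172, 116 and 180.5 in HDB 15 mm skin. All healed samples lay above normal skin, with a log2 fold change of 0.80 ± 0.12 (SE, adjusted p = 0.00181). Erbb3 (chr10:128567523-128589635), which binds neuregulins and signals as a partner of Erbb2, stood at 90.9, 71.0 and 86.2 CPM in normal skin, 182, 126 and 141 in acellular 10 mm skin, 130.1, 147 and 133 in HDB 10 mm skin, 141, 152 and 134 in acellular 15 mm skin and 128, 87.4 and 110.3 in HDB 15 mm skin. HDB 15 mm replicate 2 alone overlapped with normal skin (log2 fold change 0.69 ± 0.14 SE, adjusted p = 0.00464). Erbb2 (chr11:98412484-98437716), which has no ligand of its own, measured 72.1, 66.6 and 68.4 CPM in normal skin, 135, 114 and 109 in acellular 10 mm skin, 83.6, 114 and 104 in HDB 10 mm skin, 137, 117 and 103 in acellular 15 mm skin and 103, 67.9 and 100.2 in HDB 15 mm skin. The same HDB 15 mm sample was again the only healed one within the normal range (log2 fold change 0.63 ± 0.14 SE, adjusted p = 0.00821).

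Egfr (chr11:16752203-16913907), the receptor of Egf, Tgfa, Areg, Epgn, Hbegf and Btc, was at 62.2, 67.8 and 65.2 CPM in normal skin, 101, 77.4 and 102 in acellular 10 mm skin, 90.3, 83.3 and 93.0 in HDB 10 mm skin, 168, 145 and 97.5 in acellular 15 mm skin and 87.9, 81.7 and 69.6 in HDB 15 mm skin. Every healed sample was above normal skin (log2 fold change 0.58 ± 0.15 SE, adjusted p = 0.0119), and acellular 15 mm replicates 1 and 2 had the highest values. Fgfr3, a receptor of keratinocytes, was called higher too (log2 fold change 0.72 ± 0.21 SE, adjusted p = 0.022), with a range of 75.8 to 166 CPM in healed and 70.3 to 86.0 CPM in normal skin. The receptors best known from mesenchymal cells had log2 fold changes of -0.10 ± 0.29 for Pdgfra, -0.17 ± 0.34 for Pdgfrb and 0.01 ± 0.21 for Fgfr1 (SE), none of them called. Igf1r (0.16 ± 0.11), Met (-0.12 ± 0.10), Fgfr4 (-0.30 ± 0.45) and Erbb4 (-0.64 ± 0.47) were not called either.

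The sequence before the start of the gene is shown for 4 members on which these results turn. The stretches are the 250 bases before the annotated start, taken from RefSeq on build GRCm38.p6 and read 5′ to 3′ on the strand of the gene. Pdgfc and Fgfr2 are the ligand and the receptor with the smallest p among those whose entry begins at the annotated start of the gene, and Egfr and Igf1r are the 2 of the 3 receptors called between HDB and acellular skin at 15 mm for which this holds. Capitals mark matches, on either strand, to 4 motifs searched, namely TATAAA, the GC box GGGCGG, the AP-1 motif TGANTCA and the CArG box of serum response factor. The windows are chr3:81036166-81036415 on the plus strand, chr7:130266809-130267058 on the minus strand, and chr11:16751953-16752202 and chr7:67952007-67952256 on the plus strand.
Pdgfc: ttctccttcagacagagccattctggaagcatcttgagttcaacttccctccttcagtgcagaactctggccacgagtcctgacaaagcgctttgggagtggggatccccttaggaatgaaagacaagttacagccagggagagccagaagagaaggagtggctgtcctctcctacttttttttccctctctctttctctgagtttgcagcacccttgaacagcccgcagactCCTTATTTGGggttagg
Fgfr2: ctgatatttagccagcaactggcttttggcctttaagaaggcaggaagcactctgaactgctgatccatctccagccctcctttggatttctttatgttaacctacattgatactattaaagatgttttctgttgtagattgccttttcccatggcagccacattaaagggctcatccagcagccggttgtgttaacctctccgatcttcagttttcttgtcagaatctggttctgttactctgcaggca
Egfr: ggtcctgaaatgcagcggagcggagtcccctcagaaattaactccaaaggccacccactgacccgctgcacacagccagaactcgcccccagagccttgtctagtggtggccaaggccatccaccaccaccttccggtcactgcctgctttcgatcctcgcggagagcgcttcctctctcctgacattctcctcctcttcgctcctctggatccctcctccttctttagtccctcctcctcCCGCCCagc
Igf1r: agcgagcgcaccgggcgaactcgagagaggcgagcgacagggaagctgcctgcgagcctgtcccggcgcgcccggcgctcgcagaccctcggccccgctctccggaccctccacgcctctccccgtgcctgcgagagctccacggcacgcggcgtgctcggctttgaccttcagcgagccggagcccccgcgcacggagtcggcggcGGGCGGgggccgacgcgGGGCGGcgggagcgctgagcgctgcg
The window of Pdgfc held 1 CArG box, that of Egfr 1 GC box near its end and that of Igf1r 2 GC boxes, while none of the 4 motifs is in that of Fgfr2. In the order printed, Pdgfc, Fgfr2, Egfr and Igf1r, the GC content was 50.8%, 44%, 60.8% and 77.6%. The median was 52.4% over all entries and 61.2% over the entries of tested members. Over the 32851 promoter entries of the same length, 32.7% held the GC box, 12.4% TATAAA, 6.75% the AP-1 motif and 1.47% the CArG box. Entries were found for 32 of the 41 tested members, of which 18 held the GC box, 4 the AP-1 motif, 3 TATAAA and 2 the CArG box in at least 1 entry. Counted by entry, as for the shares over all entries, 24 of 45 held the GC box, 4 the AP-1 motif, 3 TATAAA and 2 the CArG box. A match describes the letters only.

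**Figure D3:**
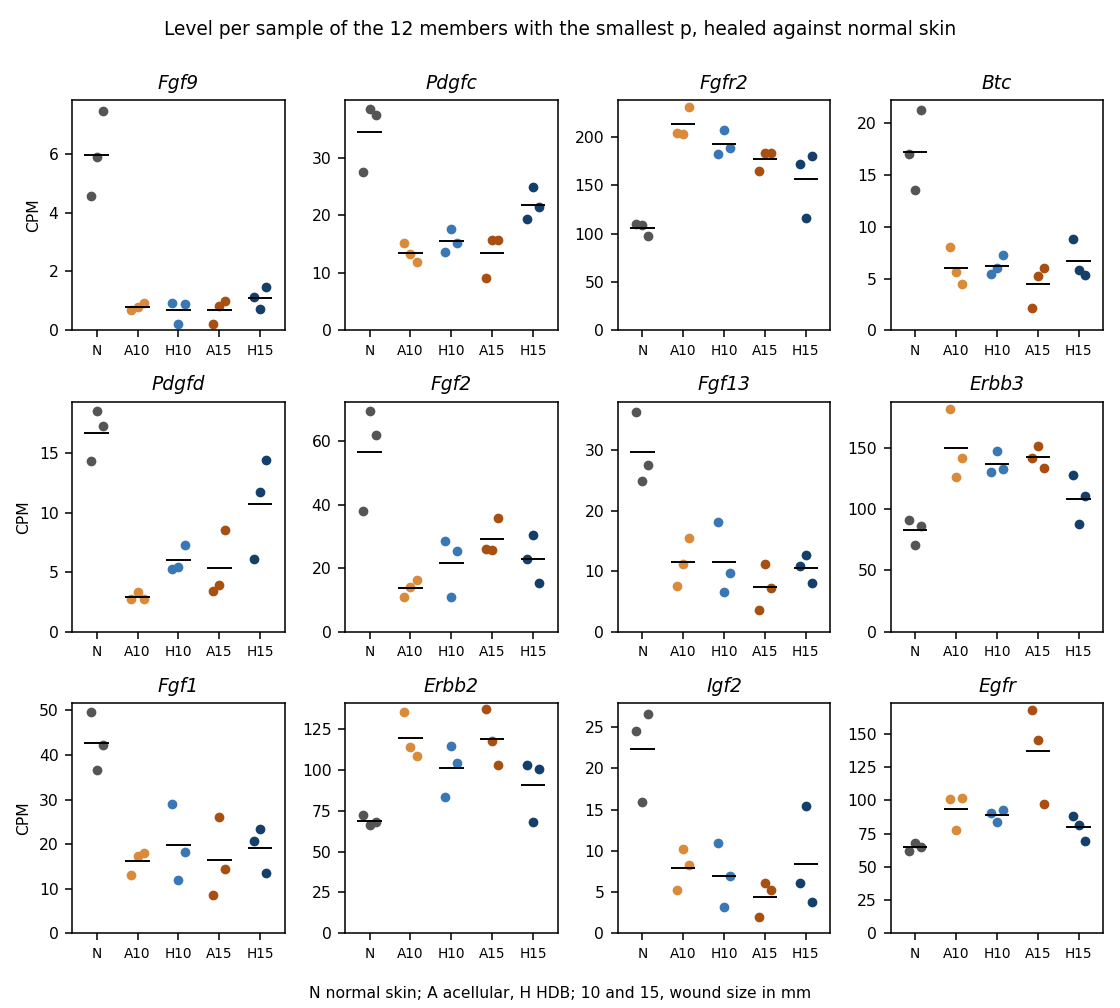
Level in CPM of the 12 members with the smallest p between healed and normal skin, with 1 point per sample and a line at the mean of each group of 3. Fgf9, Pdgfc, Btc, Fgf2, Fgf13, Fgf1 and Igf2 lie below normal skin in all 12 healed samples, Fgfr2 and Egfr lie above it in all 12, and Pdgfd, Erbb3 and Erbb2 each overlap with it through HDB 15 mm samples.

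Markers of other cell types differed between healed and normal skin at the same time. The 6 endothelial markers were all called lower (median log2 fold change -1.61), with a summed level of 88.0 to 375 CPM in healed and 495 to 585 CPM in normal skin. Of 7 skeletal muscle markers 1 was called lower, all 7 had lower means, and their sum was 525 to 30008 CPM in healed and 41889 to 50801 CPM in normal skin, without overlap. Called lower were also 5 of 6 adipocyte, 5 of 6 macrophage, 3 of 5 mast cell, 2 of 6 fibroblast, 2 of 7 smooth muscle and pericyte and 2 of 5 Schwann cell markers. Called higher were 6 of 10 hair shaft and inner root sheath markers, 4 of 7 wound keratinocyte markers, 3 of 6 sebaceous gland markers and 1 of 7 dermal papilla markers. Basal and suprabasal keratinocyte markers were divided, with 2 of 8 higher and 3 lower, and none of the 5 T cell and 5 melanocyte markers was called. The sum of the hair markers was 14.7 to 19115 CPM in healed and 6.10 to 6.39 CPM in normal skin. The part of these cell types in the changes of the growth factor genes was not tested.

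Each wound group was also set against the same 3 normal samples, so these 4 comparisons share their control. In acellular 10 mm skin 6 members were called higher (Fgfr2, Fgfr3, Hbegf, Epgn, Erbb2 and Erbb3) beside 9.77% of all genes, and 8 were lower (Fgf1, Fgf2, Fgf9, Fgf13, Btc, Pdgfc, Pdgfd and Igf1) beside 10.6%. Igf1 had a log2 fold change of -1.76 ± 0.41 (SE, adjusted p = 0.0154) there and was called in none of the other 3 comparisons, and in HDB 15 mm skin its estimate was 0.31 ± 0.40 (SE). In acellular 15 mm skin 9 members were called higher (Fgf5, Fgfr2, Fgfr3, Tgfa, Nrg1, Egfr, Erbb2, Erbb3 and Igf1r) beside 17.6%, and 11 were lower (Fgf1, Fgf9, Fgf13, Fgf18, Btc, Egf, Pdgfa, Pdgfb, Pdgfc, Pdgfd and Igf2) beside 12.6%. Without replicate 1 of that group, Fgf1, Fgfr3, Tgfa and Egf lost their call. The counts were smaller in HDB skin. At 10 mm, 2 members were higher (Fgfr2 and Erbb3) beside 6.10% and 5 were lower (Fgf2, Fgf9, Btc, Pdgfc and Pdgfd) beside 6.23%, and at 15 mm Fgfr2 was higher beside 2.67% and Fgf9, Btc and Met were lower beside 2.51%.

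Those counts, and the share of all genes called, moved with single samples and with the fit. For HDB against normal skin, fits without 1 sample gave 0 to 12 called members at 10 mm beside 0.501% to 17.5% of all genes, and 0 to 5 at 15 mm beside 0.218% to 8.61%. Both counts and both shares were lowest without normal replicate 3. At 10 mm the count was 12 without HDB replicate 1, 3 without HDB replicate 2, 2 without HDB replicate 3 and 4 without normal replicate 2. At 15 mm it was 0 without any single normal sample and without HDB replicate 1 or 3. In acellular 10 mm skin the count was 8 without acellular replicate 1 or normal replicate 3, 9 without acellular replicate 3 and 7 without normal replicate 2, against 14 with all samples, while over all fits without 1 sample 5.14% to 11.9% of all genes were called against 20.3%. When only the groups compared were fitted, 8 members (6.57% of all genes) were called in acellular 15 mm skin and 10 (22.9%) in HDB 15 mm skin, against 20 and 4 in the fit of all groups, which reverses their order. At 10 mm the same fit called 21 (42.0%) in acellular and 13 (20.2%) in HDB skin, against 14 and 7, which keeps it. A smaller count in HDB skin is therefore not a difference between HDB and acellular skin, which was tested directly.

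At 10 mm no member was called between HDB and acellular skin, and neither was any other gene (0%). Without adjustment, 5 members had a p under 0.05 (Fgf14, Hbegf, Epgn, Pdgfd and Igf1), beside 3.53% of all genes, and DESeq2 called no member and 17 other genes. Epgn (epigen, chr5:91027517-91035212), an Egfr ligand of the epidermis, measured 11.3, 4.82 and 5.10 CPM in normal skin, 10.4, 20.7 and 31.0 in acellular 10 mm skin, 4.38, 9.90 and 7.05 in HDB 10 mm skin, 11.96, 6.30 and 6.74 in acellular 15 mm skin and 8.05, 12.1 and 6.72 in HDB 15 mm skin. All 3 HDB 10 mm samples were below the 3 acellular ones, with a log2 fold change of -1.54 ± 0.47 (SE, unadjusted p = 0.00638 from edgeR's test). Hbegf stood at 6.32, 4.62 and 8.85 CPM in normal skin, 10.8, 11.7 and 17.0 in acellular 10 mm skin, 7.99, 7.48 and 8.72 in HDB 10 mm skin, 9.75, 11.3 and 6.16 in acellular 15 mm skin and 10.7, 13.6 and 11.2 in HDB 15 mm skin. Its HDB 10 mm samples were likewise lower (log2 fold change -0.71 ± 0.28 SE, unadjusted p = 0.0243 from edgeR's test), whereas at 15 mm the estimate was 0.38 ± 0.28 (SE). Pdgfd, with the values given above, was higher in all HDB 10 mm samples (log2 fold change 1.02 ± 0.37 SE, unadjusted p = 0.0157 from edgeR's test). The adjusted p was 1.00 for each of Epgn, Hbegf and Pdgfd.

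In all, 4 members had every HDB 10 mm sample above every acellular one (Fgf14, Pdgfd, Pdgfra and Pdgfrb), beside 4.53% of all genes, and 5 had every HDB sample below (Fgf18, Fgfr3, Hbegf, Tgfa and Epgn), beside 6.47%. With 3 samples against 3, the exact two-sided permutation test cannot give a p below 0.1. No cell type marker was called at 10 mm. All 6 fibroblast markers had higher means in HDB skin (median 1.26), with sums of 9075 to 12033 CPM against 3576 to 5516 CPM in acellular skin. All 10 hair markers had lower means (median -4.99), with sums of 31.8 to 38.9 CPM against 14.7 to 1408 CPM. The part of these cells was not tested.

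**Figure D4:**
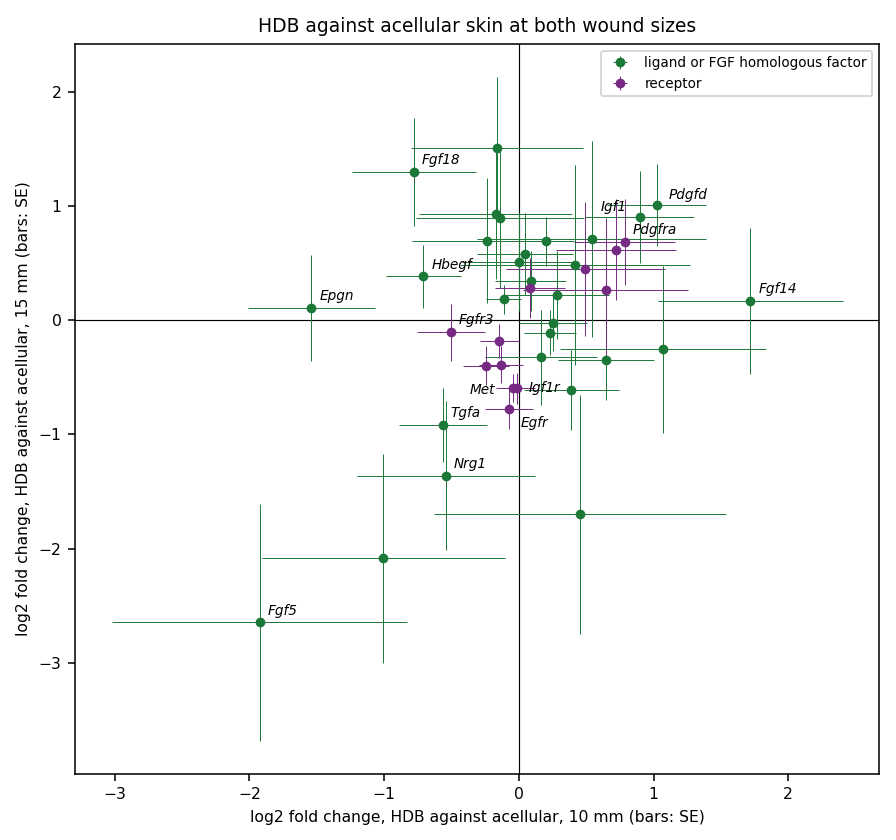
Log2 fold change of HDB against acellular skin in 10 mm wounds (horizontal axis) and 15 mm wounds (vertical axis) for the 41 tested members, with bars of 1 SE. Pdgfd, Igf1 and Pdgfra lie at the upper right with higher levels at both sizes, Egfr, Igf1r and Met lie near 0 at 10 mm and between -0.78 and -0.59 at 15 mm, and Fgf18 lies at the upper left.

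At 15 mm, 3 receptors were called lower in HDB skin than in acellular skin, namely Egfr, Igf1r and Met, beside 2.35% of all genes. No member was called higher, beside 0.579%. Egfr was at 87.9, 81.7 and 69.6 CPM in HDB and at 168, 145 and 97.5 CPM in acellular 15 mm skin, with a log2 fold change of -0.78 ± 0.18 (SE, adjusted p = 0.0427). Igf1r (chr7:67952257-68233668), the receptor of both IGF ligands, measured 63.2, 60.5 and 62.1 CPM in normal skin, 73.8, 61.4 and 65.7 in acellular 10 mm skin, 70.6, 55.4 and 72.8 in HDB 10 mm skin, 85.5, 101 and 79.6 in acellular 15 mm skin and 63.3, 50.8 and 61.8 in HDB 15 mm skin. The 3 HDB 15 mm samples were below the 3 acellular ones and close to or below the normal samples, at -0.60 ± 0.13 (SE, adjusted p = 0.0413). Met (chr6:17463349-17573980), the receptor of Hgf on epithelial cells, stood at 44.8, 52.4 and 50.7 CPM in normal skin, 44.5, 53.1 and 46.5 in acellular 10 mm skin, 45.3, 45.3 and 48.9 in HDB 10 mm skin, 58.0, 48.0 and 55.2 in acellular 15 mm skin and 40.7, 35.8 and 30.4 in HDB 15 mm skin. Its HDB 15 mm samples were the lowest 3 of all 15 (log2 fold change -0.59 ± 0.12 SE, adjusted p = 0.0344).

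These 3 calls depended on the samples and on the fit. With the replicate number as a block over all 15 samples (replicate block), 0 of the 3 were called. This block gives all 5 groups the same replicate effect, and a pairing of the 15 mm groups alone was not fitted. Without acellular 15 mm replicate 1 the count was also 0, beside 0.979% of all genes, with log2 fold changes of -0.61 for Egfr, -0.62 for Igf1r and -0.53 for Met. It was 0 without any single HDB 15 mm sample, beside 0% of all genes, and 1 without acellular 15 mm replicate 2, beside 4.19%. It was 12 of 41 (29.3%) without acellular 15 mm replicate 3, where 14.9% of all genes were called. The adjusted p ranged from 0.000409 to 0.464 for Egfr, from 0.000289 to 0.735 for Igf1r and from 0.000115 to 0.464 for Met over all alternatives. Transcript length moved with the comparison, since the 361 genes called lower had a median transcript of 4976 bases and the 89 called higher of 863 bases, against 2183 bases over all genes tested. With each sample's trend with transcript length removed, 0 members and 0.594% of all genes were called. The log2 fold change of Igf1r then shrank to -0.11 (adjusted p = 0.735). Those of Egfr (-0.77, adjusted p = 0.0775) and Met (-0.62, adjusted p = 0.0558) changed little, but neither was called. The trend used the median transcript of each gene, which has 2943 bases for Egfr, 2512 for Met and 11409 for Igf1r. The longest transcripts have 10208 bases for Egfr and 6809 for Met. With the lengths used, the fit could move Egfr and Met little, so it does not set them apart from Igf1r. Under the replicate block the 3 estimates were -0.77 for Egfr, -0.61 for Igf1r and -0.60 for Met. The means of cell type markers moved in the same comparison, mostly without a call. All 10 hair markers (median -4.78) and all 5 melanocyte markers (median -2.70) had lower means in HDB 15 mm skin, while all 6 fibroblast markers (median 0.98), all 6 endothelial, all 6 macrophage and all 7 skeletal muscle markers had higher means. None of these was called, and 1 smooth muscle and pericyte marker, Notch3, was called lower (log2 fold change -0.76 ± 0.15 SE, adjusted p = 0.0252). The hair markers summed to 596, 117 and 108 CPM in the HDB and to 19115, 1475 and 26.6 CPM in the acellular 15 mm samples. The melanocyte markers summed to 164, 114 and 134 CPM in the HDB and to 2357, 59.1 and 162 CPM in the acellular 15 mm samples. Only acellular replicate 1 was above all HDB samples in that sum. The part of these cells in the levels of Egfr, Igf1r and Met was not tested.

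In edgeR's fit of all groups no other member passed the adjusted threshold at 15 mm, while DESeq2 called 8 members (19.5%) beside 14.1% of all genes. With Egfr, Igf1r and Met included, 13 members had an unadjusted p under 0.05, beside 23.2% of all genes. Every HDB sample was above every acellular one in Fgf18 and Pdgfc, beside 8.55% of all genes, and below in Egfr, Erbb3, Igf1r and Met, beside 11.7%. Pdgfc had a log2 fold change of 0.69 ± 0.21 (SE, adjusted p = 0.0904). Tgfa, the Egfr ligand of keratinocytes, was at 16.5, 9.03 and 16.3 CPM in HDB and 38.6, 27.2 and 13.4 CPM in acellular 15 mm skin, where replicate 1 was highest (log2 fold change -0.92 ± 0.33 SE, adjusted p = 0.125). Fgf5 was at 2.40, 1.03 and 1.07 CPM and 20.2, 7.59 and 0.531 CPM (log2 fold change -2.65 ± 1.04 SE, adjusted p = 0.157), and the acellular samples spanned both ends. Leaving out acellular 15 mm replicate 1 gave log2 fold changes of -1.43 for Fgf5, -0.54 for Tgfa, 0.84 for Fgf18 and 0.48 for Pdgfc, none of them called. Those of Nrg1, Areg and Pdgfrb, which were not called either, went from -1.36 to -0.20, from -2.09 to -0.82 and from 0.62 to 0.19. Acellular 15 mm replicate 1 held the highest level of all 15 samples in 10 of the 41 members (Fgf5, Fgf10, Fgf22, Fgfr3, Areg, Tgfa, Nrg1, Egfr, Erbb2 and Met). It held the lowest in 14 (Fgf1, Fgf4, Fgf11, Fgf13, Fgf18, Fgfr1, Fgfr4, Btc, Erbb4, Pdgfa, Pdgfb, Pdgfc, Pdgfrb and Igf2). No other sample was highest in more than 7 members or lowest in more than 6.

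**Figure D5:**
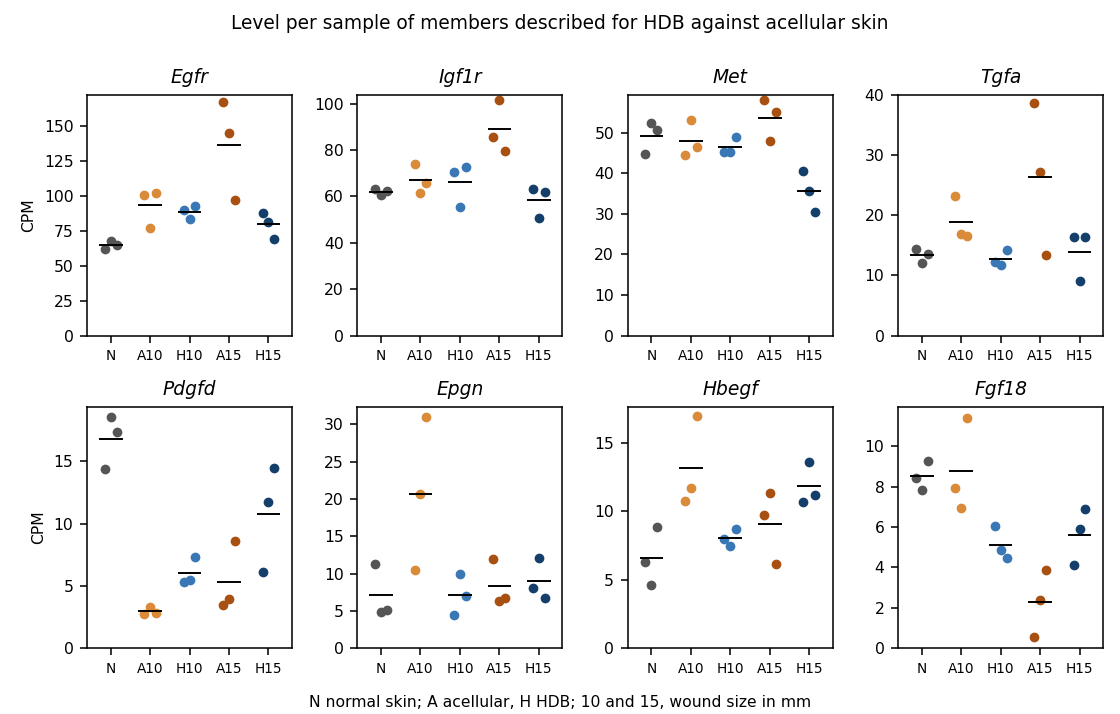
Level in CPM per sample of the 6 members that the rule for treatment comparisons names (Egfr, Igf1r, Met, Pdgfd, Epgn and Hbegf) and of Tgfa and Fgf18, chosen after their values were seen, with a line at the mean of each group of 3. Met, Igf1r and Egfr are lowest or near normal in HDB 15 mm skin, the mean of Pdgfd is higher in HDB than acellular skin at both sizes, and Fgf18 is lower in HDB skin at 10 mm and higher at 15 mm.

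When both sizes were combined, no member and no other gene was called for HDB against acellular skin (0%). Without adjustment 13 members had a p under 0.05, beside 15.8% of all genes, and DESeq2 called 6 (14.6%) beside 2.76% of all genes. Pdgfd had the smallest p (log2 fold change 1.02 ± 0.26 SE, unadjusted p = 0.00174 from edgeR's test), with an adjusted p of 0.261 that ranged from 0.0144 to 0.495 over the alternatives. Its mean was higher in HDB skin at both sizes, by 1.02 at 10 mm and 1.01 at 15 mm on the log2 scale. The exact two-sided permutation test over both sizes gave p = 0.01, where 0.005 is the smallest p that its 400 arrangements allow. Pdgfd was picked for its small p in these same data, and the permutation p is not adjusted for that choice. Met (log2 fold change -0.32 ± 0.09 SE, unadjusted p = 0.00314 from edgeR's test) and Egfr (log2 fold change -0.43 ± 0.12 SE, unadjusted p = 0.00475 from edgeR's test) came next, with the same adjusted p. Their estimates at 10 mm alone were -0.05 and -0.07. By role, the 4 PDGF ligands, both PDGF receptors and both IGF ligands all had higher means in HDB skin, with medians of 0.33, 0.70 and 0.64. Lower means were found in 6 of 8 EGF family ligands and 3 of 4 EGF family receptors. No member of these roles was called by edgeR with all samples, and the median over all genes was -0.01. Pdgfd and Egfr were among the members called by DESeq2 and in the fit without acellular 15 mm replicate 3. Without acellular 15 mm replicate 1, Pdgfa turned from 0.03 to -0.01. Pdgfb went from 0.22 to 0.07 and Igf2 from 0.38 to 0.20.

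None of the marker genes was called in the comparison over both sizes. All 6 fibroblast markers had higher means in HDB skin (median 1.06), summing to 8385 to 18540.3 CPM in HDB and 3484 to 14951 CPM in acellular skin. Higher means were also found for 6 of 6 endothelial, 6 of 6 adipocyte, 6 of 6 macrophage, 7 of 7 skeletal muscle and 5 of 5 T cell markers, 4 of 5 mast cell and 4 of 5 Schwann cell markers, 6 of 8 basal and suprabasal keratinocyte markers, 5 of 7 smooth muscle and pericyte markers, 4 of 7 wound keratinocyte markers and 3 of 6 sebaceous gland markers. The 10 hair shaft and inner root sheath markers all had lower means (median -4.80), with 31.8 to 596 CPM in HDB and 14.7 to 19115 CPM in acellular skin, as did all 5 melanocyte markers (median -1.38) and 5 of 7 dermal papilla markers. The melanocyte markers summed to 114 to 310 CPM in HDB and to 59.1 to 2357 CPM in acellular skin, highest in acellular 15 mm replicate 1. The part of these cells in the levels of Pdgfd, Pdgfra, Igf1 or Egfr was not tested.

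The effect of HDB differed between the sizes in no member at an adjusted p under 0.05, and in no other gene (0%). Without adjustment 6 members had a p under 0.05, beside 13.4% of all genes, namely Fgf18, Met, Igf1r, Egfr, Hbegf and Epgn, and DESeq2 called 3 (7.32%) beside 5.54% of all genes. Fgf18 had the smallest p, with a difference of 2.08 ± 0.66 (SE, unadjusted p = 0.00814 and adjusted p = 0.198 from edgeR's test). It was at 8.43, 7.83 and 9.26 CPM in normal skin, 7.93, 6.96 and 11.4 in acellular 10 mm skin, 6.04, 4.84 and 4.44 in HDB 10 mm skin, 0.567, 2.39 and 3.88 in acellular 15 mm skin and 4.11, 5.88 and 6.89 in HDB 15 mm skin. HDB samples were therefore all below the acellular ones at 10 mm and all above them at 15 mm. Without acellular 15 mm replicate 1 the difference was 1.62 (adjusted p = 0.0992).

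The genes that carry, modify or answer these signals were listed as 37 ligand co-factors and carriers, 16 receptor adaptors and kinases, and 25 feedback and target genes of the MAP kinase pathway, of which 75 were tested. Between healed and normal skin 14 (18.7%) were called higher and 12 (16.0%) lower, shares near the 14.2% and 16.7% of all genes. By list these were 6 and 6 of 34 co-factors, 0 and 3 of 16 adaptors, and 8 and 3 of 25 feedback genes. Egr2 (log2 fold change 1.57 ± 0.23 SE, adjusted p = 0.00162) and Egr1 (log2 fold change 1.63 ± 0.34 SE, adjusted p = 0.00581), immediate early transcription factors, were higher, and so were Lrig1 (log2 fold change 0.67 ± 0.13 SE, adjusted p = 0.00497), which lowers EGF receptor levels, and Pappa (log2 fold change 1.62 ± 0.26 SE, adjusted p = 0.00191), a protease that frees IGF from its binding proteins. Egr2 was at 51.7, 44.6 and 38.6 CPM in normal skin, 141, 208 and 246 in acellular 10 mm skin, 88.1, 163 and 161 in HDB 10 mm skin, 94.3, 141 and 94.8 in acellular 15 mm skin and 118, 90.8 and 105 in HDB 15 mm skin. All its healed samples lay above normal skin.

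Lower were Igfbp6 (log2 fold change -2.03 ± 0.38 SE, adjusted p = 0.00383), a carrier that prefers Igf2, Sulf1 (log2 fold change -1.45 ± 0.31 SE, adjusted p = 0.00621), which trims the heparan sulfate on which FGFs depend, Spry1 (log2 fold change -0.64 ± 0.13 SE, adjusted p = 0.00572), a feedback inhibitor of FGF signalling, and the adaptor Grb2 (log2 fold change -0.32 ± 0.07 SE, adjusted p = 0.005). Igfbp6 stood at 91.4, 191 and 175 CPM in normal skin, 17.7, 31.3 and 24.3 in acellular 10 mm skin, 46.8, 11.4 and 33.2 in HDB 10 mm skin, 15.9, 36.0 and 35.6 in acellular 15 mm skin and 41.5, 146 and 78.3 in HDB 15 mm skin. HDB 15 mm replicate 2 was the only healed sample above the lowest normal one. Grb2 ranged from 71.5 to 82.9 CPM in healed and from 93.5 to 103 CPM in normal skin, so the groups did not overlap.

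For HDB against acellular skin at both sizes together none of the 75 was called. In the feedback list 5 of 25 had higher means in HDB skin (median -0.28), against 7496 of 15369 among all genes (median -0.01). The smallest p values among lower genes were those of Irs2 (log2 fold change -0.40 ± 0.09 SE, unadjusted p = 0.000607 from edgeR's test), the adaptor of the IGF and insulin receptors, and Dusp6 (log2 fold change -0.99 ± 0.28 SE, unadjusted p = 0.00399 from edgeR's test), a MAP kinase phosphatase. Irs2 ranged from 33.6 to 44.5 CPM in HDB, from 44.7 to 54.8 CPM in acellular and from 48.5 to 63.2 CPM in normal skin. Dusp6 was at 42.9, 48.6 and 44.5 CPM in normal skin, 77.8, 69.2 and 102 in acellular 10 mm skin, 31.4, 37.7 and 47.3 in HDB 10 mm skin, 165, 135 and 35.7 in acellular 15 mm skin and 71.0, 59.9 and 50.9 in HDB 15 mm skin. Its HDB samples were all lower at 10 mm, whereas acellular 15 mm replicate 3 was below the HDB samples. Among higher genes Igfbp7 (log2 fold change 0.60 ± 0.21 SE, unadjusted p = 0.012 from edgeR's test), an IGF-binding protein of vessels and stroma, had the smallest p, followed by Igfbp6 (log2 fold change 0.96 ± 0.38 SE, unadjusted p = 0.0266 from edgeR's test). At 15 mm alone Cbl (log2 fold change -0.74 ± 0.12 SE, adjusted p = 0.0229), which marks receptor tyrosine kinases for degradation, and Frs2 (log2 fold change -0.68 ± 0.15 SE, adjusted p = 0.0387), the docking protein of FGF receptors, were called lower, in the same comparison as Egfr, Igf1r and Met. These are 2.67% of the 75, near the 2.35% of all genes called lower. In alternatives added after seeing the data, Frs2 was called under 5 of 13, with a log2 fold change of -0.67 (adjusted p = 0.0618) under the replicate block and a smaller one of -0.40 (adjusted p = 0.200) with the length trend removed. Cbl was called under 9 of 13, including the replicate block (adjusted p = 0.0398) and the length trend (adjusted p = 0.0347). It lost its call without any single HDB 15 mm sample and when only the groups compared were fitted.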

How the data were processed

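RNA of 15 skin samples was sequenced, and the table deposited by the authors holds estimated counts per gene, that is expected counts that need not be whole. The submitters' processing notes list RSEM 1.2.12, HISAT2 2.0.4, Bowtie2 2.2.5 and build GRCm38.p6 without giving their roles. The methods name DESeq2 and FPKM. Expected counts were rounded to whole numbers here. How reads shared by similar genes were divided is not given in the sources used here.

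Genes passing filterByExpr were normalized by TMM and tested with edgeR 4.0.16 (quasi-likelihood, R 4.3.3) in 1 fit of the 5 group means, with Benjamini-Hochberg adjustment over all 15369 genes, after the script was tested on simulated data. Depth was 15840551 to 18404188 counts per sample, and 15 samples limit the precision. The alternatives were DESeq2 1.42.0, RLE factors, other filters, fits of only the groups compared, a replicate block, removal of a trend with transcript length and leaving out each sample. Lengths came from GENCODE M21.

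Members and gene lists were chosen with earlier results of these data known. Values in every sample are given for the 12 members with the smallest p between healed and normal skin and for up to 3 per treatment comparison (the called ones, or else those with the smallest p). Pathway genes were named for the smallest p in each direction, with every sample given for Egr2, Igfbp6 and Dusp6 only. Deviations of same-numbered samples from their group means correlated at r = 0.397, 0.167 and 0.183 between acellular and HDB 15 mm skin. In every other pair of groups the lowest r was smaller. All 3 were also above 0 between HDB 15 mm and normal skin (0.115, 0.136 and 0.0158) and between acellular 10 mm and normal skin (0.00255, 0.151 and 0.0622). Samples with different numbers were not compared. The replicate block, under which 0 members were called at 15 mm, is given beside that result.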

Additional observations from a re-analysis of the deposited data

Results flagged for a closer look

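The difference in Fgf18 between HDB and acellular skin had opposite signs at the 2 wound sizes, with every HDB sample below every acellular sample in 10 mm wounds and every HDB sample above every acellular sample in 15 mm wounds. The log2 fold change of HDB against acellular skin was -0.78 ± 0.46 at 10 mm and 1.30 ± 0.47 at 15 mm (SE), and the difference of 2.08 had an unadjusted p of 0.00814 and an adjusted p of 0.198 from edgeR's test. Without acellular 15 mm replicate 1 the difference was 1.62 (adjusted p = 0.0992). The lowest of all 15 values, 0.567 CPM, was that of acellular 15 mm replicate 1, the sample with the most hair shaft keratin, and the part of hair follicles in the difference was not tested.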

How the results depend on the processing

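The count of members called between healed and normal skin was 18 and ranged from 12 to 21 over all alternatives, with 17 under the replicate block. None of the 12 members with the smallest p in that comparison changed direction. Between HDB and acellular skin, Epgn, Pdgfd and Hbegf at 10 mm and Egfr, Igf1r and Met at 15 mm kept theirs. The direction of the other members is not covered by this statement. The filter at a mean of 50 counts leaves out Fgf9, so that alternative has no value for it. Leaving out 1 sample at a time gave 7 to 11 members in acellular 10 mm skin against normal (14 with all samples), 0 to 12 in HDB 10 mm skin (7), 0 to 5 in HDB 15 mm skin (4), 0 to 12 between HDB and acellular 15 mm skin (3) and 0 to 3 for HDB against acellular skin with both sizes combined (0), where the 3 came without acellular 15 mm replicate 3. The shares of all genes called in these fits were, in the same order, 5.14% to 11.9%, 0.501% to 17.5%, 0.218% to 8.61%, 0% to 14.9% and 0% to 1.47%. When only the groups compared were fitted, 21 members (42.0% of all genes) were called in acellular 10 mm skin against normal (14), 8 (6.57%) in acellular 15 mm skin (20), 13 (20.2%) in HDB 10 mm skin, 10 (22.9%) in HDB 15 mm skin and 0 (0%) between HDB and acellular 15 mm skin. DESeq2 called 13 members (24.8% of all genes) for HDB 10 mm and 14 (18.6%) for HDB 15 mm against normal skin, 8 (14.1%) between HDB and acellular skin at 15 mm, 6 (2.76%) over both sizes and 3 (5.54%) for the difference between sizes. Without a filter on low counts, 1 member was called in HDB 15 mm skin against normal (3.31% of all genes) and 1 between HDB and acellular 15 mm skin (1.06%). The replicate block left 1 (1.54%) and 0 (1.16%) in the same pair of comparisons, and removal of the length trend left 0 (0.594%) in the latter. Fits without a sample also have a smaller group, and the cause of these changes was not tested. Members at low levels had few counts in most samples, with a range of 0 to 15 for Fgf4, 1 to 137 for Fgf22 and 1 to 46 for Hgf. The part of depth in their results was not tested.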
